A study of Mus musculus with 6 samples.

Results

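Macrophages and dendritic cells recognise dying cells with surface receptors, some of which need a secreted bridging ligand. RNA of 10 such genes was examined in MHCIIhi cells of the mouse gut muscle layer that had been sorted into CX3CR1- and CX3CR1+ populations. The genes comprise the receptor tyrosine kinases Mertk, Axl and Tyro3, the other receptors Timd4, Stab1, Havcr2 and Lrp1, and the ligands Gas6, Pros1 and Mfge8. All 10 were found by symbol among the 26110 genes of the deposited table, by a rule that reads gene symbols and no measured value. The members and the other gene lists were themselves chosen with earlier results of these data known.

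Efferocytosis is the engulfment of apoptotic cells before they break open. The dying cell exposes phosphatidylserine, a lipid normally kept on the inner leaflet of its membrane. Timd4 and Stab1 bind this lipid directly, whereas the TAM kinases Tyro3, Axl and Mertk reach it through the vitamin K-dependent proteins Gas6 and Pros1, and integrins reach it through Mfge8. Besides uptake, TAM signalling restrains inflammatory cytokine production, and Mertk is among the genes by which tissue macrophages are told apart from dendritic cells.

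Both populations came from the muscularis externa (ME) of the small bowel of untreated mice with the genotype CX3CR1+/GFP, in which 1 copy of Cx3cr1 is replaced by a GFP reporter. Thus, the CX3CR1+ and the CX3CR1- cells alike carry a single intact Cx3cr1 gene, and the sort read the reporter. The study describes its mice as female and gives body weight but no age, and it pooled tissue of 6 mice for a group without saying whether libraries came from separate pools. There were 3 libraries of CX3CR1- cells, titled Sample_2041, Sample_2043 and Sample_2047, and 3 of CX3CR1+ cells, titled Sample_2040, Sample_2044 and Sample_2046, so p-values measure the spread between these libraries, which may be in part technical. The labels name the cells dendritic cells, while the study treats both populations as macrophages. It bases this on IBA-1 staining of the MHCII+ cells and on flow cytometry. There, most CX3CR1- cells carried CD11b and very few carried CD11c or CD103. The study also reports higher RNA of dendritic cell markers in CX3CR1- cells.

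Values are gene-level signal that the authors normalized between libraries. Judged from the smallest step between low values, the libraries held about 5346504 to 17617358 reads, and 3 reads corresponded to a value of 1.39 to 5.36 depending on the library. Cx3cr1 itself had a mean of 23.6 ± 4.80 (SD, n = 3) in CX3CR1- and 366 ± 17.5 in CX3CR1+ cells, in the direction of the sort labels. Mitochondrial genes took 47.5 to 54.9% of the signal in CX3CR1- and 18.1 to 21.2% in CX3CR1+ libraries. The pan-leukocyte gene Ptprc was at 3737 ± 836 and 4225 ± 342, respectively, and 1 of 5 leukocyte and MHC class II genes was called, H2-Aa as lower in CX3CR1- cells. All 8 macrophage markers were lower and all 8 conventional dendritic cell markers were higher in CX3CR1- cells, as were 7 of 7 fibroblast, 6 of 6 epithelial and 5 of 5 B and plasma cell markers. Of the markers tested, 5 of 6 endothelial, 2 of 4 mesothelial and 2 of 5 neuron and glia markers were also called higher. The same held for 1 of 2 T and natural killer cell and 0 of 6 smooth muscle markers. Among all genes tested, 8.15% were called lower and 12.2% higher. The label dendritic cell therefore met dendritic cell markers summing to 3679 to 3909 in CX3CR1- libraries and to only 242 to 317 in CX3CR1+ libraries. In bulk RNA, fewer cells of a type and less RNA per cell cannot be told apart.

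The region before the transcription start is shown for 4 members that were called without overlap between the populations: Mertk and Stab1, which were lower in CX3CR1- cells, and Timd4 and Havcr2, which were higher. Each run holds 250 bases upstream of the RefSeq start, 5′ to 3′ on the strand of the gene, in build GRCm38.p6. These are chr2:128698665-128698914 (plus strand) for Mertk, chr14:31168642-31168891 (minus strand) for Stab1, chr11:46810549-46810798 (plus strand) for Timd4 and chr11:46454681-46454930 (plus strand) for Havcr2. Capitals mark letters of 6 motifs searched on both strands, namely PU.1 core (GAGGAA), MAF half-site (TGCTGA), AP-1 (TGANTCA), Sp1 (GGGCGG), RUNX (TGTGGT) and an E-box of the MITF and TFE factors (CACGTG).
Mertk: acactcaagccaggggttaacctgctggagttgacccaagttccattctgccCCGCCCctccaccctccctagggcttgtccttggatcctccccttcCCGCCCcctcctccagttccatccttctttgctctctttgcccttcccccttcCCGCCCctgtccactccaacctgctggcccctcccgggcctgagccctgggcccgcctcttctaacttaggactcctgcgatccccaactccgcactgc
Stab1: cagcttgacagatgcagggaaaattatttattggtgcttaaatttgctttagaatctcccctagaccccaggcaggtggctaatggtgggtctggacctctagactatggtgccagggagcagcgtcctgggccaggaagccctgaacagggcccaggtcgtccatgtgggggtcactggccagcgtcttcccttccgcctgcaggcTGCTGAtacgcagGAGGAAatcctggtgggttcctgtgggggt
Timd4: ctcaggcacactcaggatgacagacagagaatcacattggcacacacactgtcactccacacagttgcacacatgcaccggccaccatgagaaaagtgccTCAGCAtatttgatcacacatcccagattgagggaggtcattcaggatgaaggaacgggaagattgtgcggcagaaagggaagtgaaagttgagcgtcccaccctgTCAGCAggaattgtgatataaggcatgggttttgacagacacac
Havcr2: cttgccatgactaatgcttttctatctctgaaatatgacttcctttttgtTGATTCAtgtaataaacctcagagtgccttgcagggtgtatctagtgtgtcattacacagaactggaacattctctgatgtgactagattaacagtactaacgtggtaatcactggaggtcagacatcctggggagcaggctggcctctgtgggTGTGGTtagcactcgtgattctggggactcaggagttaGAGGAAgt
No marked stretches overlapped in these 4 runs. Mertk held 3 Sp1 matches, all read on the opposite strand, and Stab1 held a MAF half-site next to a PU.1 core. Timd4 held 2 MAF half-sites on the opposite strand, while Havcr2 held an AP-1, a RUNX and a PU.1 match. Sp1 letters stood before 7 of the 10 members and in 32.7% of the 32851 promoters of this length, and neither Timd4, Stab1 nor Havcr2 had them. The PU.1 core was found in 4 members (Axl, Stab1, Havcr2 and Mfge8) and in 23.3% of promoters, the MAF half-site in 2 members and 16.1%. AP-1 letters occurred in 1 member (6.7% of promoters), RUNX letters in 2 (14.0%) and the E-box in 0 (6.0%). A match describes letters and does not show a bound site.

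The question put to the libraries was which members differed between the CX3CR1- and CX3CR1+ populations. A gene was called when its fitted difference on the log2(value + 1) scale was at least 1 in size and its Benjamini-Hochberg adjusted p from limma was at most 0.05, over 17812 genes with a mean of at least 10. Of the 10 members 9 passed this filter and 7 were called: Mertk, Axl, Stab1 and Gas6 were lower and Timd4, Havcr2 and Mfge8 were higher in CX3CR1- cells. Among all genes tested, 20.4% were called, 8.15% as lower and 12.2% as higher. Because the members were chosen with earlier results known, the shares are set side by side as a description. Lrp1 and Pros1 did not pass, and Tyro3 was too low to be tested. The populations did not overlap in 6 of the 9 tested members, against 40% of all genes tested. The median log2 difference of the tested members was -0.08, beside 0.00 for all genes.

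**Figure D1:**
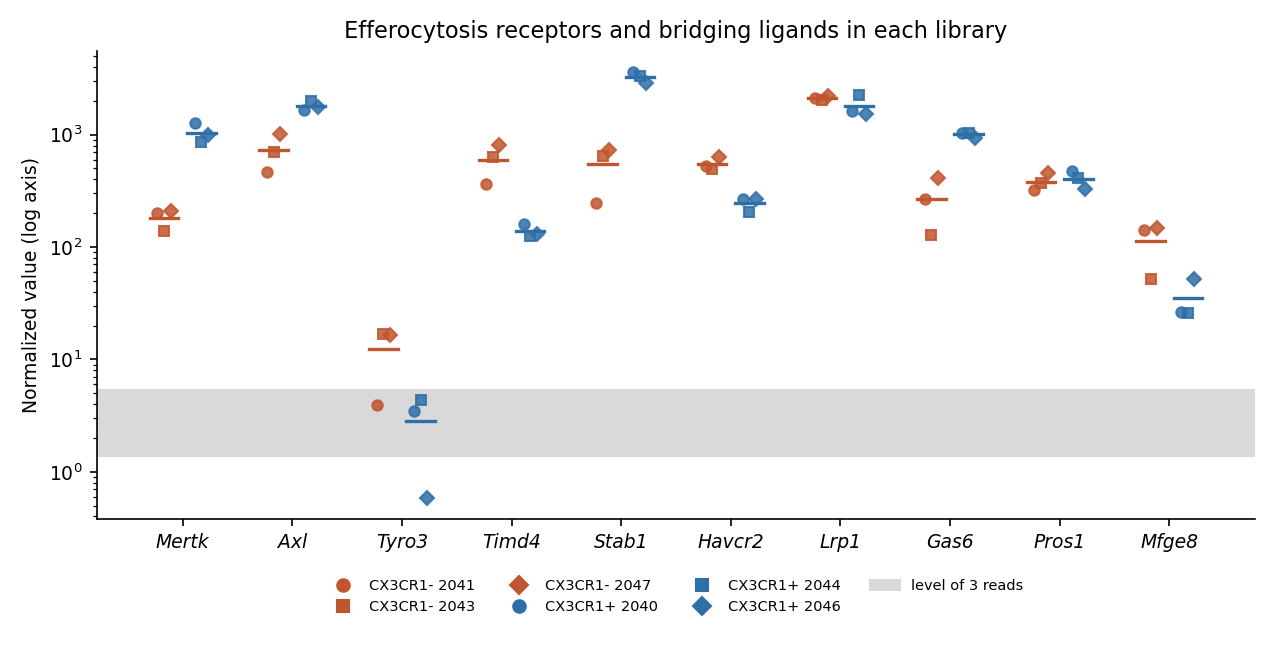
Normalized value (log axis) of each member in the 6 libraries, with CX3CR1- in orange, CX3CR1+ in blue, a line at each population mean and the level of 3 reads (1.39 to 5.36) in gray. Mertk, Axl, Stab1 and Gas6 sit lower and Timd4 and Havcr2 higher in every CX3CR1- library, whereas Mfge8, Lrp1 and Pros1 overlap.

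Of the TAM kinases, Mertk and Axl could be tested, and both were lower in CX3CR1- cells. The normalized value of Mertk was 199, 138 and 209 in CX3CR1- libraries Sample_2041, Sample_2043 and Sample_2047, and 1259, 865 and 996 in CX3CR1+ libraries Sample_2040, Sample_2044 and Sample_2046. The highest CX3CR1- library thus remained far under the lowest CX3CR1+ library. The means were 182 ± 38.8 and 1040 ± 201 (SD, n = 3), a 5.71-fold lower level in CX3CR1- cells, and the log2 difference was -2.51 (SE 0.232, 95% interval -3.03 to -1.997, limma adjusted p = 4.17e-05). Mertk (ENSMUSG00000014361) lies at chr2:128698956-128802894 on the plus strand of GRCm38 and is overlapped by the antisense gene Gm14011. Counted on both strands, 0% of its transcript 31-mers occurred in other genes.

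Axl, which binds Gas6 most tightly of the TAM kinases, had a smaller fitted difference in the same direction. Values were 467, 702 and 1013 in CX3CR1- and 1669, 1979 and 1762 in CX3CR1+ libraries. The populations did not overlap, although CX3CR1- libraries spread 2.17-fold among themselves and CX3CR1+ libraries only 1.19-fold. Means of 727.5 ± 274 and 1803 ± 159 gave a log2 difference of -1.38 (SE 0.254, 95% interval -1.94 to -0.81, limma adjusted p = 0.00306). Axl (ENSMUSG00000002602) lies at chr7:25757273-25788705 on the minus strand.

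Tyro3, the TAM kinase best known from the nervous system, stayed close to the limit of measurement. Values were 3.91, 16.8 and 16.5 in CX3CR1- and 3.51, 4.345 and 0.5896 in CX3CR1+ libraries, which corresponds to about 3.75, 9.38 and 16.5 reads and to 7.58, 5.30 and 0.416 reads. The populations overlapped, and the mean over the 6 libraries was under the filter of 10. Tyro3 (ENSMUSG00000027298) lies at chr2:119797733-119818104 on the plus strand.

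The receptors outside the TAM family split between the populations. Stab1 (stabilin-1), a scavenger receptor of alternatively activated macrophages and sinusoidal endothelium, had values of 247, 649 and 735 in CX3CR1- and 3607, 3332 and 2854 in CX3CR1+ libraries. The means were 544 ± 261 and 3264 ± 381, a 6.00-fold lower level in CX3CR1- cells, with a log2 difference of -2.73 (SE 0.350, 95% interval -3.50 to -1.95, limma adjusted p = 3.31e-04). Sample_2041 was the lowest of the CX3CR1- libraries by far. Stab1 (ENSMUSG00000042286, chr14:31139013-31168641, minus strand) overlaps Nt5dc2 on the opposite strand, and 1.66% of its transcript 31-mers also occurred in other genes.

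Timd4 (TIM-4), which tethers apoptotic cells by phosphatidylserine and marks long-lived resident macrophages in several tissues, went the other way. Values were 363, 629 and 809.7 in CX3CR1- and 160.5, 125 and 132 in CX3CR1+ libraries. Every CX3CR1- library was above every CX3CR1+ library, the closest pair being 363 and 160.5. The means of 601 ± 225 and 139 ± 19.0 gave a 4.32-fold higher level in CX3CR1- cells, with a log2 difference of 2.04 (SE 0.294, 95% interval 1.38 to 2.69, limma adjusted p = 6.81e-04). Timd4 (ENSMUSG00000055546) lies at chr11:46810800-46844332 on the plus strand.

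Havcr2 (TIM-3), a relative of Timd4 known from exhausted T cells and from dendritic cells, was higher in CX3CR1- cells as well. Values were 526, 489.7 and 628 against 269, 204 and 265.5, without overlap. The log2 difference was 1.15 (SE 0.207, 95% interval 0.69 to 1.61, limma adjusted p = 0.00253), with means of 548 ± 71.7 and 246 ± 36.5. Havcr2 (ENSMUSG00000020399) lies at chr11:46454935-46481255 on the plus strand, on the same chromosome and less than a megabase from Timd4.

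Lrp1, a large receptor of the LDL receptor family that takes up cells coated with calreticulin, was not called. Its values of 2119.5, 2047.2 and 2198 in CX3CR1- lay inside the range of 1609, 2256 and 1518 in CX3CR1+ libraries. The log2 difference was 0.26 (SE 0.177, 95% interval -0.13 to 0.66, limma adjusted p = 0.325), which leaves room for a change in either direction. Lrp1 (ENSMUSG00000040249, chr10:127538161-127621148, minus strand) is overlapped by the antisense gene Gm16217 and shared 0.01% of its 31-mers with other genes.

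The 3 bridging ligands gave 3 different outcomes. Gas6, a ligand of all TAM kinases, had values of 268, 129 and 411 in CX3CR1- and 1042, 1032 and 935 in CX3CR1+ libraries. CX3CR1+ libraries were close together, whereas CX3CR1- libraries ranged widely below them. Means of 269 ± 141 and 1003 ± 59.0 gave a 3.72-fold lower level in CX3CR1- cells and a log2 difference of -2.04 (SE 0.351, 95% interval -2.83 to -1.26, limma adjusted p = 0.00199). Gas6 (ENSMUSG00000031451, chr8:13465374-13494490, minus strand) overlaps Tmem255b on the opposite strand and shared 0.28% of its 31-mers with it.

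Pros1 (protein S), an anticoagulant that serves as ligand of Mertk and Tyro3, had values of 323, 371 and 454 in CX3CR1- and 478, 408 and 331 in CX3CR1+ libraries. The populations interleaved, and the log2 difference was -0.08 (SE 0.219, 95% interval -0.57 to 0.41, limma adjusted p = 0.824). Scaling each library to Ptprc, which moves all genes together, gave 0.12, so no direction is given for Pros1. Pros1 (ENSMUSG00000022912) lies at chr16:62854307-62929346 on the plus strand.

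Mfge8, which links phosphatidylserine to integrins, had values of 140.3, 51.6 and 149 in CX3CR1- and 26.5, 25.7 and 52.3 in CX3CR1+ libraries. It passed the threshold as higher in CX3CR1- cells with a log2 difference of 1.61 (SE 0.465, 95% interval 0.57 to 2.65, limma adjusted p = 0.0294) although Sample_2043 lay under Sample_2046. The call was lost without any 1 of the libraries Sample_2041, Sample_2047, Sample_2040 and Sample_2044 (adjusted p from 0.0976 to 0.106). Mfge8 (ENSMUSG00000030605) lies at chr7:79133768-79149060 on the minus strand.

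**Figure D2:**
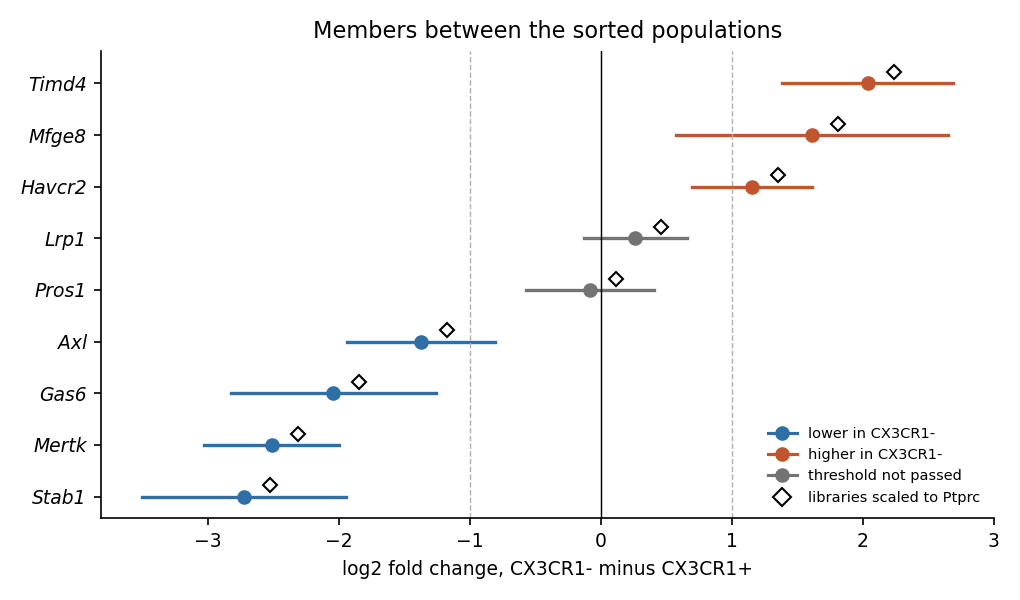
Difference of each tested member between CX3CR1- and CX3CR1+ cells on the log2(value + 1) scale, with 95% intervals from limma, the threshold of 1 in size as dashed lines, and the difference after scaling each library to Ptprc as open diamonds. Stab1 (-2.73), Mertk, Gas6 and Axl lie below and Havcr2, Mfge8 and Timd4 (2.04) above the threshold, and Pros1 changes sign after scaling.

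Levels of different members were set side by side only after division by length, as normalized value per kb of the longest coding transcript. In CX3CR1- cells Timd4 came first at 276.5 ± 103 per kb, before Havcr2 at 201 ± 26.4, Axl at 171 ± 64.3, Lrp1 at 142.5 ± 5.07, Pros1 at 116 ± 20.0 and Gas6 at 106 ± 55.4. Stab1 at 68.0 ± 32.6, Mfge8 at 53.5 ± 25.4 and Mertk at 42.3 ± 9.02 followed, and Tyro3 was last at 2.78 ± 1.65. Here only the steps from Lrp1 to Pros1 and from Mertk to Tyro3 exceeded the larger SD of the pair. In CX3CR1+ cells Axl at 423 ± 37.2, Stab1 at 408 ± 47.6 and Gas6 at 394 ± 23.2 led within their spread, and Mertk followed at 242 ± 46.7 per kb. Pros1 at 123 ± 22.3 and Lrp1 at 120.5 ± 27.04 were within their spread of each other, ahead of Havcr2 at 90.5 ± 13.4, Timd4 at 64.0 ± 8.73, Mfge8 at 16.4 ± 7.12 and Tyro3 at 0.631 ± 0.442. The order depended on the transcript length, since division by the mean coding transcript length put Lrp1 first in CX3CR1- (421 per kb) and Stab1 first in CX3CR1+ cells (1088 per kb).

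**Figure D3:**
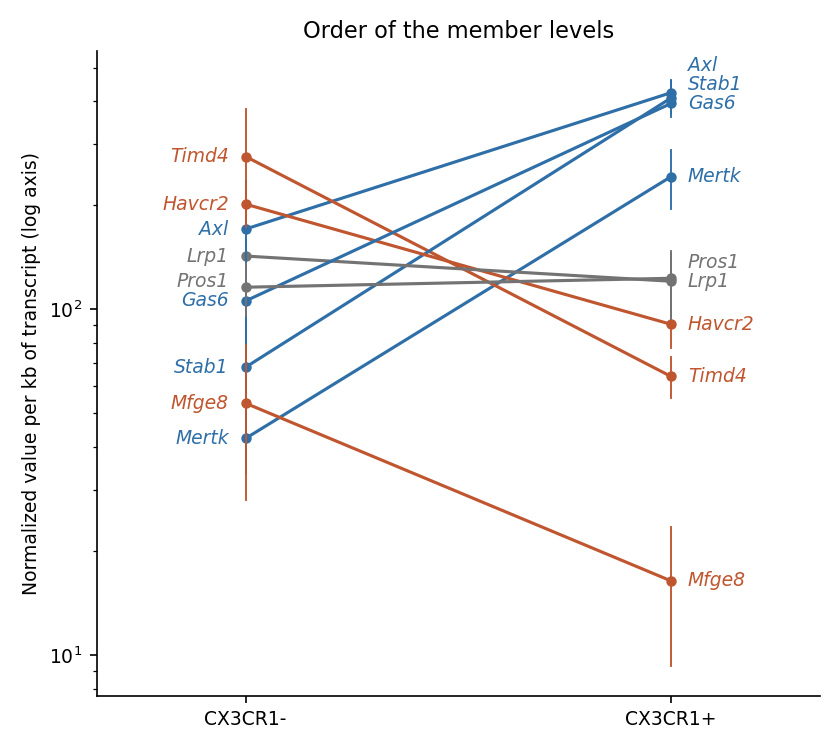
Mean normalized value per kb of the longest coding transcript (log axis) of 9 members in CX3CR1- and CX3CR1+ cells, with bars of 1 SD over 3 libraries and Tyro3 left out. Timd4 has the highest mean in CX3CR1- cells (276.5 per kb), within the spread of Havcr2. It is among the lowest in CX3CR1+ cells (64.0 per kb), where Axl, Stab1 and Gas6 lead. By the mean coding transcript length, Lrp1 comes first in CX3CR1- and Stab1 in CX3CR1+ cells.

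A ratio of a pair of members within a library does not depend on how libraries were scaled to each other. The ratio of the Mertk value to the Axl value was 0.427, 0.196 and 0.207 in CX3CR1- and 0.754, 0.437 and 0.565 in CX3CR1+ libraries. Every CX3CR1- library had a lower ratio than every CX3CR1+ library. The ratio is not corrected for transcript length, so its value does not say which gene had more RNA. The mean log2 ratio was -1.95 ± 0.625 and -0.81 ± 0.394 (SD, n = 3), a difference of -1.14 with an exact two-sided permutation p of 0.1, the smallest that 3 against 3 libraries allow.

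The ligand ratio was lower in CX3CR1- cells as well. The ratio of Gas6 to Pros1 was 0.830, 0.347 and 0.906 in CX3CR1- and 2.18, 2.53 and 2.82 in CX3CR1+ libraries, likewise without overlap and without correction for length. The mean log2 ratio was -0.64 ± 0.761 and 1.32 ± 0.187, and the difference of -1.96 again had an exact permutation p of 0.1. Both p-values remained at 0.1 after adjustment over the 2 ratios, and neither ratio could have reached 0.05.

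**Figure D4:**
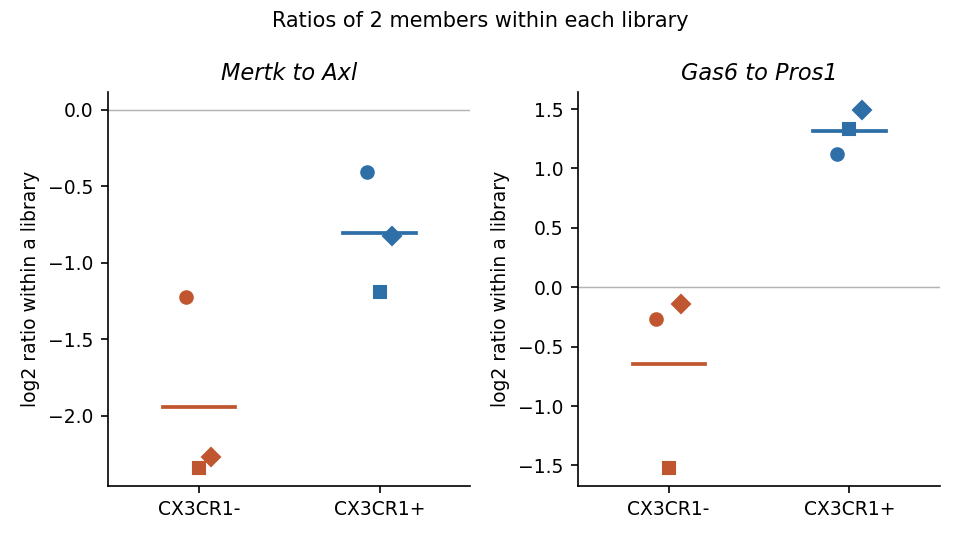
The log2 ratio of Mertk to Axl and of Gas6 to Pros1 within each of the 6 libraries, with a line at the mean of each population and circles, squares and diamonds for single libraries. Both ratios are lower in all CX3CR1- libraries than in any CX3CR1+ library, and the ratios are not corrected for transcript length.

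Since all 8 macrophage markers were lower in CX3CR1- cells, as 4 members were, member values were also set against the summed value of the 8 macrophage markers in the same library. This sum was 8489 to 10641 in CX3CR1- and 43513 to 47527 in CX3CR1+ libraries, 4.63-fold higher in the latter, and its most abundant genes were Mrc1 (3438 ± 438 and 15480 ± 403) and Csf1r (1786 ± 237 and 9487 ± 419). Per 1000 of the macrophage marker sum, Mertk amounted to 19.1 ± 5.48 in CX3CR1- and 23.3 ± 5.40 in CX3CR1+ cells, Stab1 to 54.5 ± 22.8 and 72.6 ± 9.28, and Gas6 to 28.2 ± 14.7 and 22.3 ± 1.44. On this scale the populations overlapped for Mertk, Stab1 and Gas6, all of which were lower in CX3CR1- cells on the deposited scale. Axl turned direction, with 55.0, 66.0 and 101 in CX3CR1- and 38.4, 41.6 and 40.0 in CX3CR1+ libraries, a 1.85-fold higher ratio in CX3CR1- cells. Lrp1 was 5.56-fold, Pros1 4.36-fold, Havcr2 10.3-fold, Mfge8 15.5-fold and Timd4 19.6-fold higher per macrophage marker sum in CX3CR1- cells, without overlap. Because the sum differed 4.63-fold, a gene of equal value in both populations comes out about that much higher in CX3CR1- cells on this scale. The turn of Axl likewise follows from this division, since its value was only 2.48-fold lower. So does the closeness of the populations for Mertk, Stab1 and Gas6, whose values were 5.71-fold, 6.00-fold and 3.72-fold lower. The ratios to the marker sum were described after the values had been seen and were not tested.

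Markers of further cell types differed between the populations and among the CX3CR1- libraries. The 8 conventional dendritic cell markers, among them Clec9a (1014 ± 158 and 54.5 ± 17.6) and Cd209a (842 ± 49.6 and 26.5 ± 8.44), were within 3679 to 3909 in sum in all CX3CR1- libraries. The sum of the 7 fibroblast markers was 9409, 5258 and 16011 in libraries Sample_2041, Sample_2043 and Sample_2047 and 209 to 364 in CX3CR1+ libraries, led by Dcn (2704 ± 1309 and 92.0 ± 41.1) and Dpt (2389 ± 1363 and 44.6 ± 15.1). Among CX3CR1- libraries, all 9 tested members were highest in Sample_2047, as the fibroblast sum and the T and natural killer cell sum were. Gas6, Mfge8, Mertk, Havcr2 and Lrp1 were lowest in Sample_2043, and Axl, Stab1, Timd4 and Pros1 in Sample_2041. The fibroblast, smooth muscle, endothelial and neuron and glia sums were lowest in Sample_2043, which had the fewest reads (about 6517495) of the CX3CR1- libraries. Macrophage, dendritic cell, B and plasma cell, and T and natural killer cell sums were lowest in Sample_2041, and the remaining sums in Sample_2047. Lrp1 and Havcr2 spread only 1.07-fold and 1.28-fold among these libraries, and this order of 3 libraries was not tested. The study describes a CD45 and MHCII gate for its flow cytometry. Its sorting section names MHCIIhi cells with and without CX3CR1 and refers to the antibody list, without restating CD45. Where the fibroblast RNA came from was not tested.

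Epithelial markers summed to 14763 to 24225 in CX3CR1- and 20 to 46 in CX3CR1+ libraries, mostly from Fabp2 (18240 ± 4921 and 4.301 ± 4.40) and Vil1 (1479 ± 353 and 17.3 ± 5.97), and 2 of these 6 markers were at or under 3 reads in all CX3CR1+ libraries. B and plasma cell markers summed to 1388 to 3586 and 22 to 30, led by Jchain (1653 ± 1083 and 10.4 ± 1.72), with 2 of 5 at or under 3 reads in all CX3CR1+ libraries. The sums were 1206 to 1676 and 624 to 791 for endothelium, 170 to 424 and 20 to 44 for mesothelium, 115 to 434 and 78 to 86 for enteric neurons and glia, and 129 to 176 and 65 to 125 for T and natural killer cells. Krt19 stood in both the epithelial and the mesothelial list. It had 179, 153 and 96.7 of the mesothelial sums of 424, 187 and 170 in Sample_2041, Sample_2043 and Sample_2047. Smooth muscle markers overlapped, at 918 to 2675 and 1954 to 2745, and 0 of 6 were called by limma. What part these cells had in the values of the members was not tested.

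Beyond the members, 75 further genes of dying-cell clearance were listed by role, also with earlier results known. Of these, 70 could be tested, 19 were called lower (27.1%) and 9 higher (12.9%) in CX3CR1- cells, and 41 did not overlap, with a median log2 difference of -0.23. Of all genes tested, 8.15% were called lower, 12.2% were called higher and 40% did not overlap, with a median of 0.00. Scaled to Ptprc, 15 of the 70 pathway genes were lower and 10 higher, beside 922 lower and 2272 higher of all 17812 genes.

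Receptors for find-me signals, which draw phagocytes to dying cells, had the lowest median of the lists (-1.86), with 3 of 6 lower and 0 higher. The nucleotide receptors P2ry12 (43.2 ± 11.9 against 516 ± 66.1, log2 difference -3.57, limma adjusted p = 1.16e-05) and P2ry6 (-2.41) were lower most, followed by the chemerin receptor Cmklr1. The complement opsonins, C1qa (-2.88) and C1qc (-2.40) foremost, accounted for the 3 of 11 other bridging molecules that were lower. In the same list Anxa1, a phosphatidylserine-binding protein (508 ± 18.3 against 36.4 ± 11.5, 3.81), and Tub (2.21) were among 3 that were higher.

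Of the other receptors 11 of 13 were tested, with 3 lower and 3 higher. The integrin subunits Itgb5 (-3.04) and Itgav (-1.60), which together form an Mfge8 receptor, were lower, while Itgb3 (2.81), the alternative partner of Itgav, was higher at 119 ± 38.5 against 15.7 ± 3.56. Havcr1 (TIM-1) was called higher with values of 5.59, 53.2 and 7.44 in CX3CR1- libraries and was listed at 0 in all CX3CR1+ libraries, with its highest value in Sample_2043. Do-not-eat-me receptors and signals included Sirpa (-2.11) and Cd300a (-1.53) as lower and Cd24a (1858 ± 35.7 against 29.5 ± 5.91, 5.95) and Siglecg (4.90), which form a ligand and receptor pair, as higher. Cd47, the ligand of Sirpa and named here after its value was seen, was not called (0.26, limma adjusted p = 0.266).

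Of 13 engulfment genes 10 were not called, and the adaptor Gulp1 (2.80) was higher while Elmo1 (-1.12) and Vav1 (-1.11) were lower. In LC3-associated phagocytosis 1 of 7 was lower, the oxidase subunit Cybb (-2.23). Of 11 genes for digestion and lipid response 3 were lower, with the cholesterol exporter Abca1 (-2.46) foremost. C1qa stood in the macrophage marker list as well. Feedback and shedding of TAM receptors had 5 of 8 genes tested and 2 lower, the sheddase Adam17 (-1.64) that cleaves Mertk and the interferon receptor chain Ifnar1 (-1.11).

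**Figure D5:**
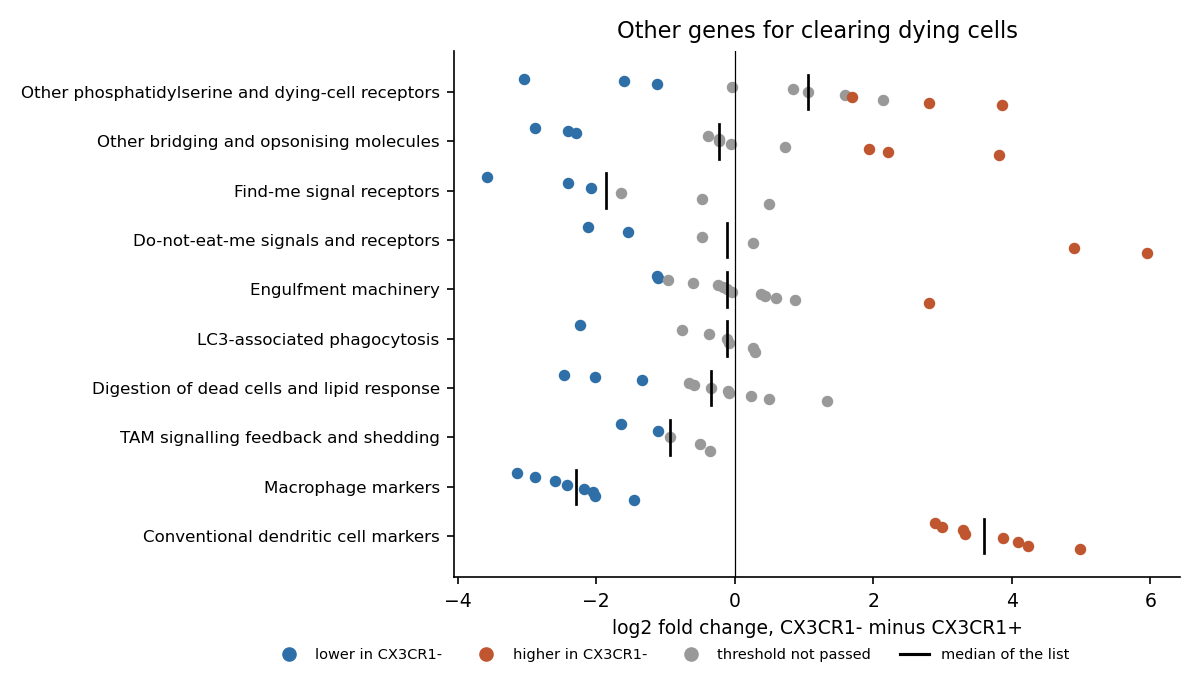
Log2 difference (CX3CR1- minus CX3CR1+, log2(value + 1) scale) of each tested gene in 8 lists for clearing dying cells and in the macrophage and conventional dendritic cell marker lists, with a black line at the median of each list. Find-me signal receptors have a median of -1.86, most engulfment genes did not pass the threshold, and the marker lists lie on opposite sides of 0.

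The genes whose profile over the 6 libraries was most like that of Mertk were Arhgap12, Laptm4a and Zfp36l1, with Pearson r of log2 values of 0.998, 0.998 and 0.997. For Axl they were Clec5a, H2-T23 and Kpna3, at 0.998, 0.998 and 0.9965. With 6 points in 2 populations, r was at least 0.95 for 591 genes with Mertk (3.32%) and for 311 genes with Axl (1.75%). All genes of a library share its depth and its population, and these values are a description.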

How the data were processed

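The authors sequenced total RNA of sorted cells from TruSeq v2 libraries, which do not mark strand, pseudoaligned the reads to the mm10 transcriptome with Kallisto, took the estimated counts to gene level through tximport and used DESeq2 for normalization. Deposited values are therefore signal normalized between libraries, not counts. Only 40.6 to 43.2% of values were whole multiples (within 0.01 read) of the smallest step in a library, so no count test was run. Genes with a mean of at least 10 were fitted with limma 3.58.1 (R 4.3.3; eBayes with trend) on log2(value + 1), two-sided and CX3CR1- minus CX3CR1+, and p-values were adjusted after Benjamini-Hochberg across the 17812 genes. Fold changes on this scale understate changes of low genes. Means are ± SD over 3 libraries. Where 1 symbol stood in several rows (23 symbols), the row with the higher mean was used. Ratios were tested by exact permutation over libraries (scipy 1.17.1). The fit was tested on simulated data. Gene positions and lengths came from GENCODE M21, a later release than the authors used, and promoters from RefSeq GRCm38.p6, in which all 10 members were found.

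Members and gene lists were chosen with earlier results of these data known. Named were all members; per pathway list, up to 2 called genes in each direction with the largest difference; per marker list, up to 2 genes with the highest mean in lists whose values are given; and the 3 genes most like Mertk and Axl. One gene that this rule names is not reported here. Alternatives covered the pseudocount, the filter, the normalization, the fit and leaving out each library. Groups came from the sample titles; library numbers are not shared between populations.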

Additional observations from a re-analysis of the deposited data

How the results depend on the processing

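Mertk, Axl, Stab1 and Gas6 stayed lower and Timd4 and Havcr2 higher past the threshold in all alternatives, with log2 differences of -2.64 to -2.32 for Mertk, -1.65 to -1.05 for Axl, -3.02 to -2.23 for Stab1, -2.42 to -1.59 for Gas6, 1.78 to 2.36 for Timd4 and 1.03 to 1.352 for Havcr2. Mfge8 ranged from 1.34 to 2.10 and lost its call in 6 of 17 alternatives, among them quantile normalization (1.37) and the fit without trend, so 6 or 7 members were called. Lrp1 reached an adjusted p of 0.0125 after quantile normalization (0.69), under the fold threshold. Pros1 changed sign after quantile normalization (0.034), scaling to Ptprc (0.12) and scaling to the total without mitochondrial genes (0.089, chosen after seeing the data), and ranged from -0.221 to 0.043 when single libraries were left out. The last 2 scalings move all genes together, and for quantile normalization the cause was not tested. The 3 settings moved the median of all genes by -0.15, 0.19 and 0.16. Over all genes, 2413 were called at a mean of at least 50, where fewer genes were tested, and 2771 to 3869 without single libraries. The 3628 calls split into 2177 higher and 1451 lower, and into 2272 and 922 after scaling to Ptprc. The populations share no library numbers, so nothing in the labels pairs them, and a block for adjacent numbers changed no member call. Tyro3 was at 0.416 to 16.5 reads, under the filter on low values.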
